A study of Mus musculus with 2 samples.

Results

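Genes for the surface receptors and the identity of mast cells were compared between the distal colon of wild-type mice and of mice carrying an interleukin-9 (IL-9) transgene. The set holds 9 genes, chosen by name: Fcer1a, Ms4a2 and Fcer1g, which encode the chains of the high-affinity receptor for IgE; Kit and Csf2rb2, which encode growth factor and cytokine receptors; the surface enzyme gene Enpp3; the transcription factor genes Gata1 and Gata2; and Hdc, which encodes the enzyme that makes histamine. All 9 were on the array, read by 16 of its 20380 probe sets with a single gene symbol, and they are 9 of 12393 genes named there. The wild-type mice were of the FVB strain, which the series design text spells TVB. The transgenic mice carry the label Tg5, and both groups were bred under specific pathogen-free conditions, with no treatment or further allele named in the labels. RNA from 4 mice was pooled for each genotype and read on 1 Affymetrix array. The promoter that drives the transgene and the age and sex of the mice are not given in the sources used here.

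Mast cells are tissue-resident granulocytes that arise from bone marrow progenitors and mature under the control of stem cell factor, the ligand of Kit. IgE held by the α chain of its receptor arms the cell, and antigen that bridges the bound IgE signals through the β and γ chains, which carry tyrosine-based activation motifs. The cell then releases histamine, proteases and lipid mediators from its granules and membranes. IL-9 is a cytokine of type 2 immunity that supports the growth of mast cells, in particular those of the gut mucosa.

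In the transgenic pool 3 of the 9 genes were at least 2-fold higher: Fcer1a by at least 6.79-fold, Enpp3 by 2.39-fold and Csf2rb2 by at least 2.37-fold. Of all measured genes, 0.767% were that much higher. The Enpp3 difference was seen in its brightest probe set: the mean of its measured probe sets had a log2 ratio of 0.62, which leaves 2 members past 2-fold, and the dimmest had -0.20. Kit was 1.37-fold higher, and Fcer1g and Gata2 lay close to equal on both arrays. Ms4a2, Gata1 and Hdc did not exceed the detection floor on either array. No member was at least 2-fold lower. With 1 pool per genotype neither the spread between mice nor that between arrays can be estimated, and no test could be made. In bulk RNA a difference in the number of cells of a type and a difference in RNA per cell cannot be told apart.

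The values are intensities from the MAS5 algorithm on a linear scale in arbitrary units. A floor was placed at 19.8, which 40% of the readings from both arrays fall under (controls left out), and lower readings were raised to it before the ratio of transgenic over wild type was taken. A gene that exceeded the floor on at least 1 array was called measured, and a ratio with the floor on 1 side is only a limit, given here as at least that fold. Where a gene had several probe sets, the brightest stood for it. All probe sets of the 9 members are reported, and for other genes those that differ from the brightest in sign or by a wide margin. A member was counted as higher or lower at 2-fold, a log2 ratio of 1. For any list, the counts past 2-fold stand beside the shares of all 8346 measured genes, 0.767% upward and 0.611% downward. At those shares a short list would mostly hold 0 such genes, so a count of 0 sets no list apart. Between probe sets of the same gene, the pooled SD of the log2 ratio was 0.28 over 2847 genes, a yardstick that holds no spread between animals.

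Il9 (1450565_at) read 5.14 in wild type, under the floor, against 862 in the transgenic pool, a difference of at least 43.6-fold. Median intensities were 33.96 in wild type and 34.17 in transgenic colon. All 11 colon epithelium markers on the array exceeded the floor in both pools, with log2 ratios from -0.26 to 0.35. Genes listed for the exocrine pancreas read a summed intensity of 30795 in the wild-type pool and 1682 in the transgenic pool, and 12 of 12 were at least 2-fold lower. Cela1 alone made up 1246 of the transgenic sum and was 2.85-fold lower, and 9 of the 12 genes were at the floor in the transgenic pool. None of the 9 members belongs to that list, and the part of these transcripts in the members' ratios was not tested.

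**Figure D1:**
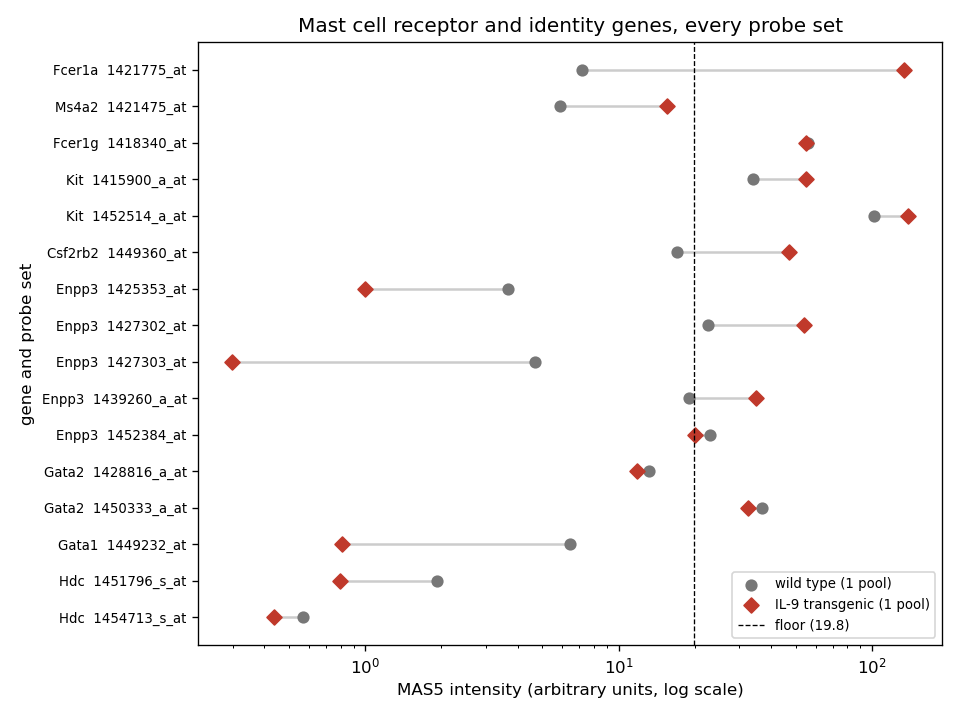
MAS5 intensity (x axis, arbitrary units, log scale) of the 16 probe sets of the 9 genes (y axis), with circles for the wild-type pool, diamonds for the IL-9 transgenic pool and a dashed line at the floor of 19.8. Fcer1a spans the longest distance of the probe sets that cross the floor, while both probe sets of Hdc and the only one of Gata1 lie left of the floor on both arrays.

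Fcer1a encodes the α chain, which binds IgE and in mice is found mainly on mast cells and basophils. Its only probe set (1421775_at) read 7.17 in wild type and 134 in transgenic colon. The wild-type pool was below the floor and the transgenic pool far above it. Against the floor the log2 ratio was 2.76, and only 7 of 8346 measured genes had a larger one. The intensities as deposited differ 18.7-fold, a value that rests on a wild-type reading under the floor.

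Ms4a2 encodes the β chain, a membrane-spanning amplifier of the receptor's signal. Its probe set (1421475_at) read 5.88 in wild type and 15.5 in transgenic colon. Both readings lay below the floor, so no ratio was taken in the main setting. The transgenic reading was the higher, and with the floor lowered to 5.58, the 20th percentile, the log2 ratio was 1.40. At that floor 202 of 10809 measured genes (1.87%) passed 2-fold upward, against 64 of 8346 at the main floor.

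Fcer1g encodes the γ chain, the signalling subunit that the IgE receptor shares with activating Fc receptors for IgG on macrophages, neutrophils and natural killer cells. Its probe set (1418340_at) read 56.1 in wild type and 54.8 in transgenic colon, a log2 ratio of -0.03. The readings differed by less than the yardstick between probe sets. Thus the α chain gene and the γ chain gene of the same receptor stood apart in these pools, at no less than 2.76 against -0.03 on the log2 scale. A list of 12 Fc receptor, related adaptor and other immune receptor genes had 10 on the array. Of these, 4 were measured and 0 reached 2-fold in either direction. The IgG receptor gene Fcgr3 read 71.9 and 86.0, a log2 ratio of 0.26, and Tyrobp, for the related adaptor DAP12, read 90.2 and 134, a log2 ratio of 0.57. The fungal glucan receptor gene Clec7a was at least 1.59-fold higher and the inhibitory IgG receptor gene Fcgr2b had a log2 ratio of 0.31, with its 3 other measured probe sets from -0.17 to 0.51. Macrophage markers, which mark cells that also express Fcer1g, had 10 of 11 genes measured, 0 at 2-fold and a median log2 ratio of 0.17. Their summed intensity was 1783 against 2056 in the transgenic pool, and the part of these cells in the Fcer1g reading was not tested. None of 8 neutrophil markers, S100a8 and S100a9 among them, exceeded the floor in either pool.

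GATA factors are known to act on genes of the IgE receptor, and the promoter windows of all 9 members were searched for GATA words, defined below. Shown are those of the members that reached 2-fold and of the β chain gene. Each window shown holds a word, and those of the other members, Fcer1g of the IgE receptor among them, are not shown. A link between a word and a higher ratio therefore cannot be read from the display. Each window runs from 250 bases before to 50 bases after the start of the gene, read 5′ to 3′ on the strand of the gene, from RefSeq on GRCm38.p6. Capitals mark GATA words, that is GATA with A or T directly before it and A or G directly after it, on either strand. A word on the opposite strand appears as its reverse complement, and words were allowed to overlap. The window of Fcer1a lies at chr1:173227180-173227479, that of Ms4a2 at chr19:11623670-11623969, that of Csf2rb2 at chr15:78305672-78305971 and that of Enpp3 at chr10:24836146-24836445, all on the minus strand.
Fcer1a: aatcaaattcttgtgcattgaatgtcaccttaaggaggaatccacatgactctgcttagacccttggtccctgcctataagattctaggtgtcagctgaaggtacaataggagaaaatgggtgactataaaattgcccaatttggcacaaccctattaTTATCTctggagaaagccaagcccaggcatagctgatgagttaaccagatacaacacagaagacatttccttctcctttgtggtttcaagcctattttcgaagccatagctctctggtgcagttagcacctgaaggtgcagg
Ms4a2: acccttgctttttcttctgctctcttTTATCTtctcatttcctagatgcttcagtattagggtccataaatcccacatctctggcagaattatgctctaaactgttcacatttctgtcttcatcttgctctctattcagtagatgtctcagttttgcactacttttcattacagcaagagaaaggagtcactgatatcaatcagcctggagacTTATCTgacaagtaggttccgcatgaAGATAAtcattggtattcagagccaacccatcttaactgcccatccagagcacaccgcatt
Csf2rb2: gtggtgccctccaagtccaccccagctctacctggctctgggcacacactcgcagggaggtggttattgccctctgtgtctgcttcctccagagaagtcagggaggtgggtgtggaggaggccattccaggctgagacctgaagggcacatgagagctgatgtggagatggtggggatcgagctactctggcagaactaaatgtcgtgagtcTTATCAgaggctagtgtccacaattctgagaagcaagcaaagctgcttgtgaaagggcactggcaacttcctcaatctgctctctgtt
Enpp3: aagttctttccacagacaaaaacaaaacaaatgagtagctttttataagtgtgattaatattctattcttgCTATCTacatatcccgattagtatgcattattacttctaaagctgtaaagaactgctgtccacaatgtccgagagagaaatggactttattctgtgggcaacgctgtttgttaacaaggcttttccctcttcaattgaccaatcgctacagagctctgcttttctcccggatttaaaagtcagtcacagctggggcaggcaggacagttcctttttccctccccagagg

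Fcer1a has 1 GATA word, starting 92 bases before the start of the gene, and Csf2rb2 has 1, starting 38 bases before it. Ms4a2 has 3 words, at 224, 37 and 11 bases before the start, and Enpp3 has 1, at 179 bases. Among the other members Hdc has 1 word, and the windows of Fcer1g, Kit, Gata1 and Gata2 have 0. Over all 32851 windows of this length 29.8% held at least 1 word and 1.76% held at least 3. By gene, 33.0% of 27025 genes had a word in any window, and 5 of the 9 members did. A match describes the letters in the window and does not show that a factor binds there.

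Kit encodes the receptor tyrosine kinase for stem cell factor, which mast cells need to survive. In gut muscle it also marks the interstitial cells of Cajal, the pacemaker cells of peristalsis. The brighter probe set (1452514_a_at) read 102 in wild type and 139 in transgenic colon, a log2 ratio of 0.45. The other (1415900_a_at) read 33.9 and 55.1, a log2 ratio of 0.70. Both probe sets were higher in the transgenic pool and neither reached 2-fold. Of the measured genes, 646 had a larger ratio than the brighter one. Markers of the interstitial cells other than Kit went both ways. Ano1, their chloride channel gene, read 143 and 172, a log2 ratio of 0.26, and Thbs4 had -0.18. The gap junction gene Gja1 had -0.24 by its brightest probe set, and its 5 other measured probe sets ran from -1.15 to 0.11, with the lowest (89.6 and 40.4) past 2-fold. Over the 6 listed markers on the array, Kit included, the summed intensity was 1269 and 1196.

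The ligand and signalling partners of Kit were on both sides of equal. Of 13 such genes on the array 10 were measured, 0 reached 2-fold and the median log2 ratio was -0.02. Kitl, for stem cell factor itself, read 423 and 441, a log2 ratio of 0.06, and its 3 other probe sets ran from -0.27 to 0.16. The Ras pathway inhibitor gene Spred1 had -0.37, with its other measured probe sets at -0.56 and 0.02, and the phosphatase gene Ptpn11 had 0.24. Stat5b, for a transcription factor that Kit and β common receptors activate, had a log2 ratio of 0.18.

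Csf2rb2 encodes the mouse β chain that pairs with the IL-3 receptor α chain, and IL-3 is a growth factor for mast cells and basophils. Its probe set (1449360_at) read 17.0 in wild type, just below the floor, and 46.9 in the transgenic pool. Against the floor it was at least 2.37-fold higher, a log2 ratio of 1.24, and 34 of the measured genes had a larger ratio. Csf2rb, for the closely related β chain shared by the receptors of IL-3, IL-5 and GM-CSF, read 7.67 and 21.0 (1421326_at), and was at least 1.06-fold higher. A further probe set that the annotation gives to both genes (1450200_s_at) read 1.16 and 4.76, below the floor on both arrays. All 3 probe sets of this pair read higher in the transgenic pool, and the single-symbol probe set of Csf2rb2 was the only one of them to clear the floor by a wide margin.

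The α chain gene of the GM-CSF receptor, Csf2ra, read 31.0 and 37.9, a log2 ratio of 0.29. Il3ra and Il5ra, the α chain genes that would pair with the β chains for IL-3 and IL-5, were below the floor in both pools, as were the cytokine genes Il3, Il5 and Csf2. Of the 11 genes listed around these receptors 6 were measured and 0 reached 2-fold. The kinase gene Jak2, which acts directly below the β chains, had log2 ratios of 0.25 and -0.10 by its measured probe sets.

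Enpp3 encodes CD203c, a surface enzyme that cleaves extracellular nucleotides and marks mast cells and basophils; gut epithelial cells are also known to express it. It was read by 5 probe sets, which differed from each other. The brightest (1427302_at) read 22.5 in wild type and 53.8 in transgenic colon, a log2 ratio of 1.26. The next (1439260_a_at) read 19.0 and 35.0, at least 1.77-fold higher. The third measured probe set (1452384_at) read 23.0 and 19.98, a log2 ratio of -0.20. The other two, 1425353_at at 3.67 and 0.994 and 1427303_at at 4.67 and 0.298, were below the floor on both arrays. Thus the count of Enpp3 among the higher members rests on 1 of 3 measured probe sets, and the mean of the 3 was a log2 ratio of 0.62, under the threshold.

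Gata2 encodes a zinc finger transcription factor needed for mast cell progenitors and for the mature cell. Its brighter probe set (1450333_a_at) read 36.9 in wild type and 32.5 in transgenic colon, a log2 ratio of -0.18, and the other (1428816_a_at) read 13.2 and 11.9, below the floor. Gata1, for the related factor of erythroid cells, platelets, eosinophils and mast cells, read 6.43 and 0.812 (1449232_at), below the floor on both arrays. All readings of Gata1 and Gata2 were lower in the transgenic pool, and 1 of their 3 probe sets exceeded the floor. Erythroid markers had 1 of 6 genes measured, Epor, at least 1.27-fold lower, and summed to 53.7 and 37.2; 0 of 5 eosinophil markers exceeded the floor.

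Among 20 partners and relatives of these factors 11 were measured, 0 passed 2-fold upward and 1 downward. That gene was Gata6, a GATA factor of gut epithelium, which read 161 and 78.8, 2.04-fold lower, whereas its other probe set read 51.2 and 60.7, a log2 ratio of 0.25. Lmo2, for a bridging protein of GATA complexes, had a log2 ratio of -0.54, and Gfi1 was at least 1.42-fold higher. Tal1 and Zfpm1, whose proteins act in complexes with GATA factors, were below the floor in both pools. Mitf, which controls granule genes in mast cells, read 44.7 and 42.1, a log2 ratio of -0.09.

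Hdc encodes histidine decarboxylase, the only enzyme that makes histamine in mammals. Its probe sets read 1.93 in wild type and 0.797 in transgenic colon (1451796_s_at) and 0.568 and 0.436 (1454713_s_at). All 4 readings lay far below the floor, and no level or ratio can be read from them. Of 7 genes listed for histamine handling on the array 3 were measured, Ddc among them, and 0 reached 2-fold. Aoc1, for the diamine oxidase that breaks down histamine in the gut, read 935 and 884, a log2 ratio of -0.08. The receptor gene Hrh1 read 43.6 and 36.1, a log2 ratio of -0.27, and Hrh2, Hrh3, Hrh4 and the methyltransferase gene Hnmt were below the floor in both pools. Ddc, though in that list, is for the decarboxylase of serotonin and dopamine synthesis and not for histamine handling. It had a log2 ratio of -0.64.

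**Figure D2:**
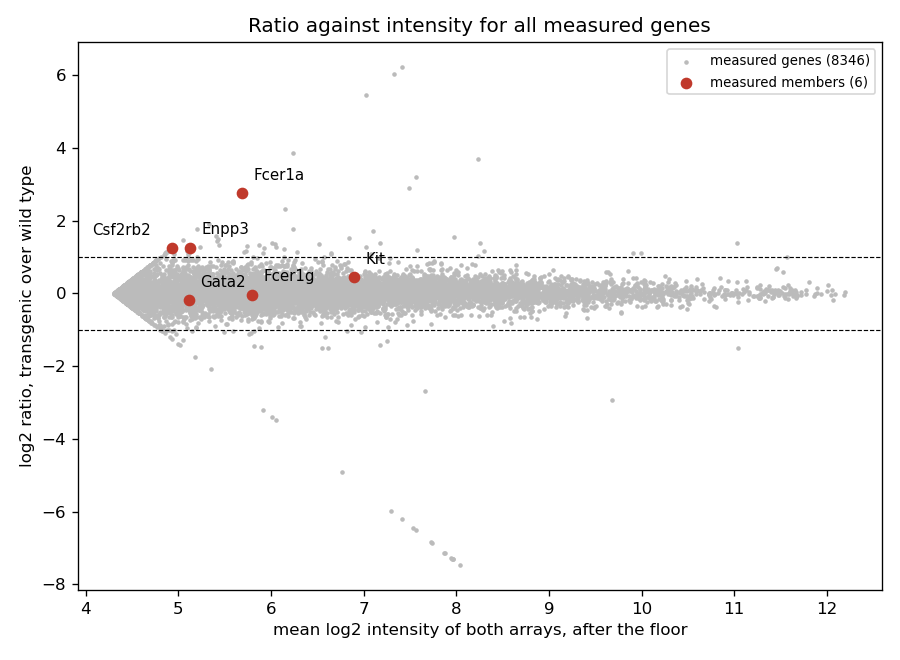
Log2 ratio of transgenic over wild type (y axis) against mean log2 intensity of both arrays after the floor (x axis) for the 8346 measured genes (grey) and the 6 measured members (red), with dashed lines at 2-fold. Fcer1a lies clear of the cloud at 2.76, Enpp3 and Csf2rb2 lie just above the upper line at low intensity, and Kit, Fcer1g and Gata2 lie inside it.

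Of the 9 members 6 were measured, 3 of these passed 2-fold upward and 0 downward, while of all 8346 measured genes 0.767% passed it upward and 0.611% downward. The median log2 ratio of the 6 was 0.85, against 0.04 over all measured genes, whose middle 95% ran from -0.61 to 0.70. Since Fcer1a and Csf2rb2 were at the floor in wild type, that median is a bound. A member at the floor in wild type entered this count only through its transgenic reading. Low readings passed 2-fold more often than the whole: among 1049 genes whose brighter array read 40 to 60, the range of Enpp3, Csf2rb2 and Fcer1g, 1.72% passed upward and 1.43% downward. Among 1784 genes whose brighter array read 100 to 200, the range of Fcer1a and Kit, the shares were 0.785% and 0.336%. Both ranges were chosen after the values were seen.

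Among granule genes of mast cells, the proteases of mucosal mast cells had the largest ratios. Of 10 on the array 9 were measured and 5 were at least 2-fold higher, against 0.767% of all measured genes. The median log2 ratio was 1.17, and the summed intensity of the 10 went from 421 in the wild-type pool to 3681. Mcpt2 and Mcpt1, the chymase genes of mucosal mast cells, differed by at least 74.3-fold and 65.5-fold, again higher in the transgenic pool, and Cpa3, for the mast cell carboxypeptidase, read 32.0 and 158, 4.95-fold higher. Mcpt4 was at least 3.44-fold higher, and Srgn, for the proteoglycan that packs granules in many blood cells, read 210 and 473, 2.25-fold higher. The tryptase gene Tpsab1 had a log2 ratio of -0.30, whereas 8 of the 9 measured granule genes were positive. Cma1 had 0.58 and Tpsg1 0.67, and Tpsb2 was at least 1.78-fold higher. The difference between the granule genes and the members was not tested, since each genotype had 1 array.

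Of 23 signalling genes below the IgE receptor on the array 19 were measured and 0 reached 2-fold. Over all measured genes 0.767% passed it upward and 0.611% downward, so 0 of 19 is near those shares. Positive log2 ratios were found in 15, and the median was 0.23 against 0.04 over all measured genes. Of all measured genes 61.5% had a log2 ratio above -0.03. The calcium sensor gene Stim1 was the lowest of the 19, at -0.32. Syk, the kinase that docks on the activated γ chain, read 60.7 and 92.3, a log2 ratio of 0.61, and its other 2 probe sets had 0.77 and 0.44. Btk was at least 1.38-fold higher, the inositol phosphatase gene Inpp5d had 0.40 and Prkcb 0.40, and the adaptor gene Lat was at least 1.07-fold higher. Many of these genes also act in B cells. Of 8 B cell markers on the array 6 were measured and 5 were at least 2-fold higher, against 0.767% of all measured genes. Among them were Cd79a at 3.79-fold, from a wild-type reading of 20.7 just above the floor, and Ighm at 9.11-fold. The 6 other measured probe sets of Ighm disagreed, with log2 ratios from 0.23 to 4.29. The summed intensity of the B cell markers was 244 and 997, and their part in the signalling gene ratios was not tested.

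Genes of other mast cell surface proteins were mostly below the floor. Of 11 on the array 4 were measured, and 1 was at least 2-fold higher: Itgae, the αE integrin chain of mucosal mast cells and of T cells in the epithelium, which read 19.9 and 44.7, 2.25-fold higher. The wild-type reading of Itgae lay only just above the floor of 19.8. Cd33 was at least 1.38-fold higher, the prostaglandin receptor gene Ptger3 had a log2 ratio of -0.43 and the tetraspanin gene Cd9 had -0.03. Il9r, for the receptor that binds IL-9 itself, read 4.39 and 0.488, below the floor on both arrays.

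Basophils share Fcer1a, Enpp3 and Csf2rb2 with mast cells. None of 4 basophil markers exceeded the floor in either pool: Mcpt8, the basophil protease gene, read 0.486 and 3.21, and the list summed to 30.4 and 28.8. Platelet markers, for cells that share the GATA genes, had 2 of 5 genes measured, Pf4 at a log2 ratio of -0.20 and Itga2b at 0.13. Enteroendocrine markers, some of whose cells express Hdc in the stomach, were measured in 8 of 8 genes and 0 reached 2-fold. Their median log2 ratio was -0.30, and 2 of the 8 were positive, with Ddc at -0.64, Insl5 at -0.43 and Tph1 at 0.72.

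**Figure D3:**
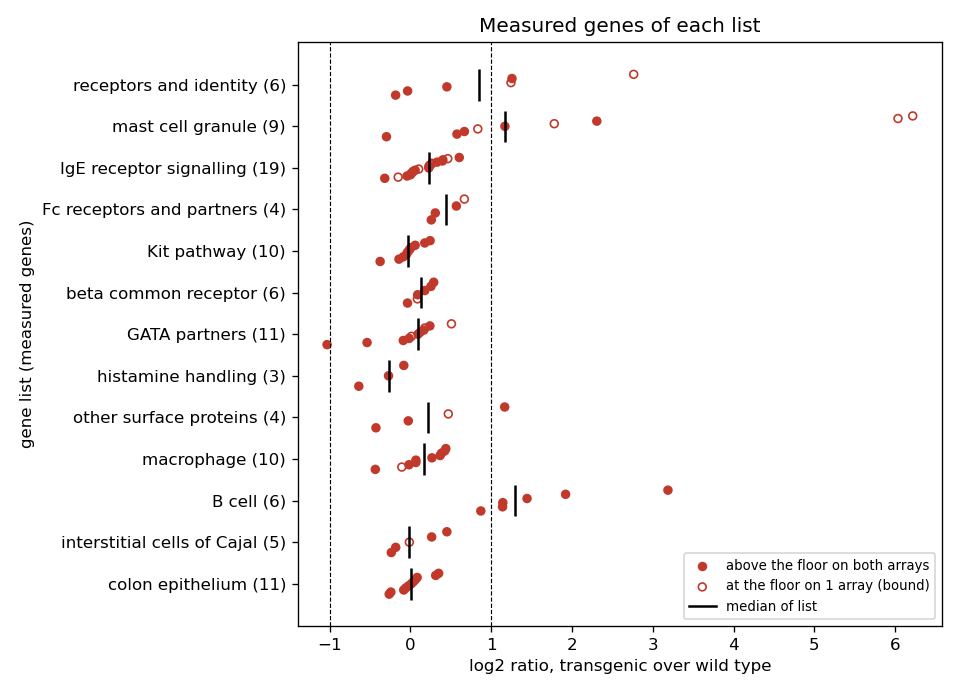
Log2 ratios of transgenic over wild type (x axis) for the measured genes of each list (y axis, number measured in brackets); filled points exceeded the floor on both arrays, open points are bounds, black bars are list medians and dashed lines mark 2-fold. The receptor and identity genes, the granule genes, the B cell genes and Itgae of the other surface proteins extend past the upper line. Gata6 of the GATA partners lies past the lower line at -1.03. In the IgE receptor signalling, Kit pathway and histamine lists 0 genes lie past either line.

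By distance of floored log2 intensities over the 2 arrays, the genes nearest to Fcer1a were Cpa3 at 0.73, the B cell receptor gene Cd79a at 0.78 and Icosl, for a costimulatory ligand, at 0.92. Cd79a read 20.7 and 78.5 and Icosl 24.6 and 73.6. With 2 arrays this measure holds only the floored reading of each pool, and levels of different probe sets are not on a common scale.

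**Figure D4:**
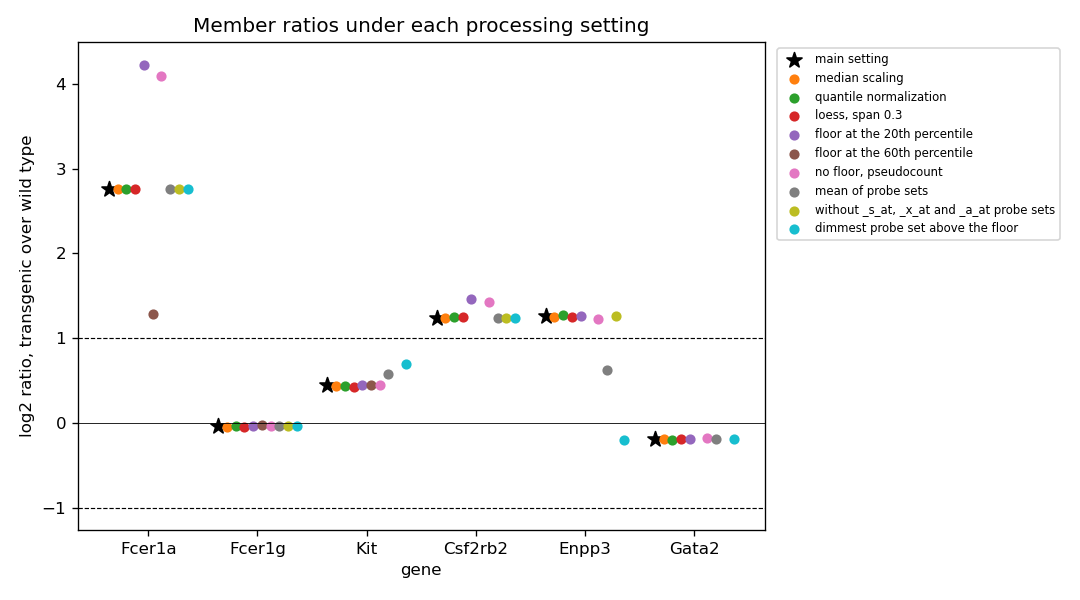
Log2 ratio of transgenic over wild type (y axis) for the 6 measured members (x axis) under the main setting (star) and each alternative (coloured points), with dashed lines at 2-fold. Fcer1a stays above the upper line in all 9 alternatives, from 1.29 to 4.23, Enpp3 falls under it in 2 of the 8 that give a value, and Kit, Fcer1g and Gata2 stay between the lines.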

How the data were processed

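Distal colon RNA of wild-type and IL-9 transgenic mice was read on 1 array per genotype, each a pool of 4 mice. The deposited table gives 1 intensity per probe set and array, made by the authors with MAS5 per the submitters' processing notes; its version, detection calls and genome build are not given in the sources used here. Its background and mismatch subtraction makes ratios of low readings unstable. Of 22626 probe sets other than controls, the platform annotation gave 1 gene symbol to 20380, several to 691 and none to 1555; genes were named only from the first kind. Gene identifiers of 20351 were found in the RefSeq table, which changed 0 symbols. Intensities were floored at the 40th percentile and log2 ratios taken with no further scaling (Python 3.11.15, numpy 2.4.6, pandas 2.3.3). The number of arrays limits the precision, and no test was run. The named genes were every member, Il9, Il9r, list members at 2-fold, up to 4 list members with the largest ratios, and the 3 genes nearest to Fcer1a; other list members were named after their values were seen, and not every gene the rule names is reported. The members and gene lists were chosen with earlier results of these data known. Alternatives were 3 scalings (median, quantile, loess with span 0.3), floors at the 20th and 60th percentiles, no floor with a pseudocount of 0.735, and 3 ways of choosing probe sets. The steps were tested on simulated arrays, in which only genes far above the floor on both arrays were changed. That test does not cover members with a reading at or near the floor. All 9 members matched the RefSeq promoter table of GRCm38.p6.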

Additional observations from a re-analysis of the deposited data

How the results depend on the processing

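Under the 3 scalings, each member kept its side of 2-fold, and the median of all genes shifted by less than 0.1. The floor mattered more. At the 60th percentile (55.1) 3 members were measured and 1, Fcer1a, was at least 2-fold higher (1.29), with a member median of 0.45. Over all 5975 genes measured at that floor, 29 were higher and 27 lower. At the 20th percentile Fcer1a had 4.23, and of 10809 measured genes 202 (1.87%) were higher and 258 lower. With no floor Fcer1a had 4.09, the member median was 0.45, and 1 member (Gata1) was at least 2-fold lower from readings near 0. Of all 12393 genes in that setting, 655 (5.29%) were higher and 800 lower. Leaving out probe sets marked as shared between transcripts, the member median was 1.25, over 4 members. With the dimmest measured probe set it was 0.33 and Enpp3 reversed to -0.20; with the mean of probe sets Enpp3 had 0.62. Ms4a2 reached 2-fold in the 2 alternatives that gave it a ratio, the floor at the 20th percentile (1.40) and no floor (1.30). In those settings 1.87% and 5.29% of all genes passed 2-fold upward. Its wild-type reading of 5.88 lay only just above the lowered floor of 5.58. No paired analysis was possible because each genotype has 1 pool, and no replicate could be left out for the same reason.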
